A study of Mus musculus with 8 samples.

Results

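The genes described here encode splicing factors and RNA helicases, and their ribosome footprints were measured in mouse liver. They are the 70 genes, of 7500 in the processed table, whose symbol starts with Hnrnp, Srsf, Sf3, Snrp, Prpf, Ddx or Dhx, and together they make up 0.933% of its genes. The liver came from male FVB/N mice that ate, from weaning and over 6 weeks, a diet poor in selenium (0 Se, with 0 ppm added) or an adequate diet (0.1 Se, with 0.1 ppm added). Each diet was represented by 2 mice and each mouse by 2 libraries, which gave 8 libraries from 4 mice, and no genetic alteration was named for either group. Ribosome profiling sequences the mRNA pieces that ribosomes protect from nuclease, so a gene's footprint count depends on how much of its mRNA there is and on how many ribosomes each mRNA carries, and these contributions cannot be told apart here.

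Removal of introns from pre-mRNA is carried out by the spliceosome, a particle of small nuclear RNAs and proteins that assembles on each intron. Each spliceosomal snRNA of the Sm class carries a ring of Sm proteins. SF3a and SF3b belong to the U2 particle that binds the branch point, and Prp factors take part in assembly and rearrangement. SR proteins and hnRNP proteins bind pre-mRNA and influence which splice sites are used, and they have further roles in mRNA packaging, export and decay. Ddx and Dhx proteins are ATP-dependent helicases named after the DEAD and DEAH residues in a conserved motif, and they remodel RNA and RNA-protein complexes in splicing, export, ribosome assembly, translation, decay and antiviral sensing.

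The table gave each gene 1 value, the log2 of its CPM (counts scaled to a common library size) averaged by the authors over all libraries, and the number of coding bases counted. It held no value per library, so no spread between mice, no n and no depth can be given, and differences between genes have no replicate check. Its columns on the difference between the diets are the authors' own comparison and were not used, so no difference between 0 Se and 0.1 Se is described. Levels are given below as CPM per kilobase (kb) of counted coding sequence, since a longer coding sequence collects more footprints at the same ribosome density. Of the hepatocyte markers, albumin (Alb) had 51734 CPM per kb, transthyretin (Ttr) 28165, Apoa1 25548 and the transcription factor gene Hnf4a 209, and Cps1 was not analysed here. Markers of other liver cells were also read, for example 171 CPM per kb for the Kupffer cell gene Clec4f, 20.3 for the endothelial gene Stab2 and 13.6 for the stellate cell gene Lrat, so the level of a splicing factor is that of the whole tissue.

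Of 116 protein-coding genes in the GENCODE vM1 annotation with these prefixes, 70 had a line in the table. The share differed between families, with 11 of 18 Hnrnp, 4 of 11 Srsf, 6 of 8 Sf3, 9 of 12 Snrp, 10 of 13 Prpf, 21 of 38 Ddx and 9 of 16 Dhx genes. The other 46, among them Hnrnpa1, Hnrnpk, Srsf1, Srsf2, Srsf3, Sf3a2, Snrpb, Ddx41, Dhx9 and the RIG-I gene Ddx58, were not analysed here. Neither was Ddx3y, the Y-linked relative of Ddx3x. All 70 genes matched an annotated isoform, and they lay on 19 chromosomes. The number of coding exons ran from 1 to 42 with a median of 13, and 3 genes, Hnrnpf, Hnrnph2 and Ddx28, had their whole coding sequence in 1 exon.

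The feature shared by the helicases is a motif that takes part in binding and hydrolysing ATP and from which their names come. The coding windows of 10 helicases are shown because these genes include the highest and the lowest helicase level and most of the motif types, with the 4 codons of the motif in capitals.
Ddx5: cttgtccttGATGAAGCTGATaggatgctt
Ddx17: cttgtgttgGATGAGGCTGACcggatgctt
Ddx3x: ctggtgttaGATGAAGCTGACcggatgtta
Ddx39b: tttattttgGACGAGTGTGACaagatgctt
Ddx39: tttgtgctaGATGAATGTGACaagatgctg
Ddx21: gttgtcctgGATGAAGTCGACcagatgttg
Dhx15: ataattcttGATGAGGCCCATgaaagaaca
Dhx36: attgtacttGATGAAATTCATgaaaggaat
Dhx58: attgtggtgGACGAGTGTCACcacacccac
Dhx34: ctgatcgtgGACGAGGTCCACgagcgacac
Each window lies within a coding exon of its gene and equals the mm9 genome, read on the gene's strand. The windows of Ddx5 (chr11:106646498-106646527), Ddx17 (chr15:79369296-79369325), Ddx21 (chr10:62054620-62054649), Dhx15 (chr5:52562726-52562755), Dhx36 (chr3:62297767-62297796), Dhx58 (chr11:100564543-100564572) and Dhx34 (chr7:16801730-16801759) are on the minus strand. Those of Ddx3x (chrX:12866525-12866554), Ddx39b (chr17:35384026-35384055) and Ddx39 (chr8:86245000-86245029) are on the plus strand.

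The motif was searched in frame as codons for aspartate, glutamate, any residue, and aspartate or histidine. It had to follow 2 residues, each of them valine, isoleucine, leucine, methionine, phenylalanine, tyrosine, cysteine or threonine. All 30 helicases held it, against 2 of the 40 other genes described here. Of the 7093 table genes with a matched coding sequence, these 70 genes included, 3.55% held it. The helicases are named after the motif, so this only checks the search. The codons read DEAD in 13 helicases, DEAH in 6, DEVD in 3, DEVH in 3, DECD in 2, and DECH, DEIH and DESD in 1 each. The median level was 16.5 CPM per kb for the 13 DEAD genes (range 2.77 to 226) and 9.26 for the 6 DEAH genes (range 1.87 to 39.9). Most of the DEAH range lay within the DEAD range, which reached higher. Ddx39b and Ddx39, the pair with DECD, stood at 48.9 and 9.72 CPM per kb. The 3 DEVH genes were Dhx30, Ddx60 and Dhx34, at 7.13, 1.34 and 1.19 CPM per kb.

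Across all 70 genes the footprint level ran from 1.19 CPM per kb for Dhx34 to 313 for Hnrnpa2b1, with a median of 21.9. The median of the whole table was 11.3 CPM per kb, and its quartiles were 3.80 and 37.5. The ratio of the medians was 1.94, and it was 1.09 when genes under a log2 CPM of 3 were left out on both sides, which left 61 of the 70 genes and 4998 of the table. Above the table median were 52 of the 70 genes (74.3%), 27 were above its upper quartile and 8 below its lower quartile. With the same low genes left out on both sides, 54.1% of the remaining splicing factors and helicases were above the median of the remaining table. At the lower end they were fewer than in the table, with 17 of the 70 genes (24.3%) under 10 CPM per kb against 46.9%. Over 100 CPM per kb were 7 of the 70 genes, a share close to the 12.6% of the table. Both limits were chosen after levels were seen. Splicing factors and helicases held 4237 of the 857014 CPM summed over the table (0.494%).

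**Figure D1:**
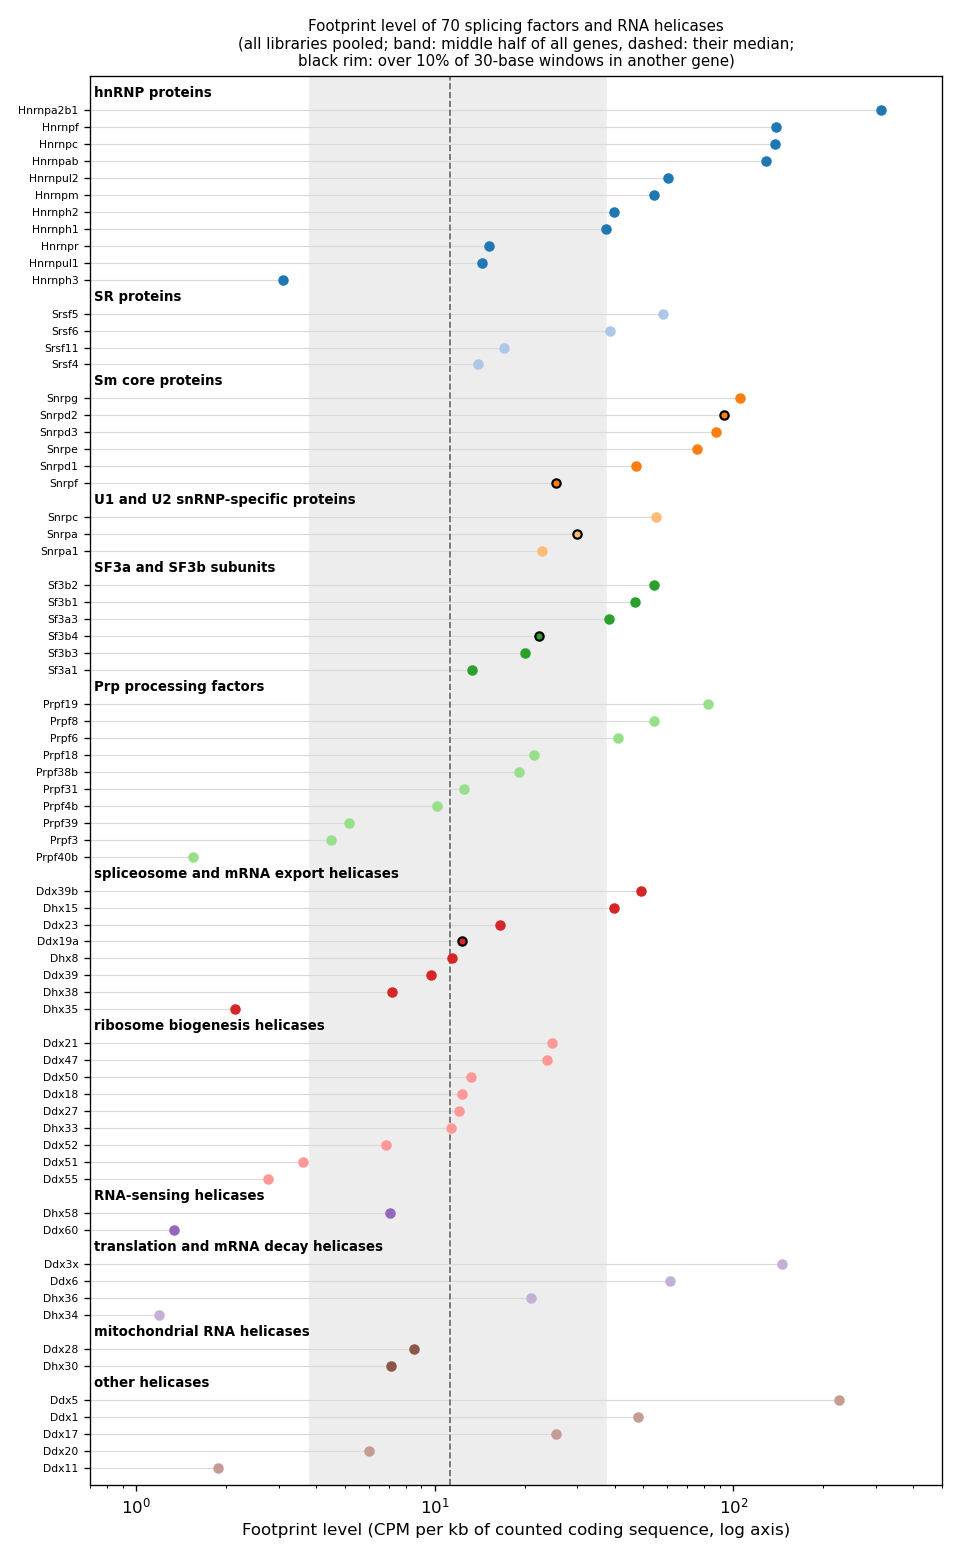
Footprint level of each of the 70 genes in CPM per kb of counted coding sequence (log axis), grouped by role, 1 point per gene from the authors' mean over all libraries. The grey band runs from the lower to the upper quartile of all 7500 genes, the dashed line is their median at 11.3, and a black rim marks genes with over 10% of their 30-base windows in another gene. The Sm core proteins all sit to the right of the dashed line, and the RNA-sensing and mitochondrial helicases all sit to its left.

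Per kb, the median level was higher for the other families than for the Ddx and Dhx genes, with overlapping ranges. The 40 genes of the Hnrnp, Srsf, Sf3, Snrp and Prpf families had a median of 38.5 CPM per kb, and 35 of them (87.5%) were above the table median. The 30 helicases had a median of 11.7 CPM per kb, close to that of the table, and 17 of them (56.7%) were above it. The ratio of the medians was 3.28 per kb of coding sequence, but 1.18 for CPM not divided by length. The median coding length was 1290 bases for the first set and 2008.5 bases for the helicases.

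**Figure D2:**
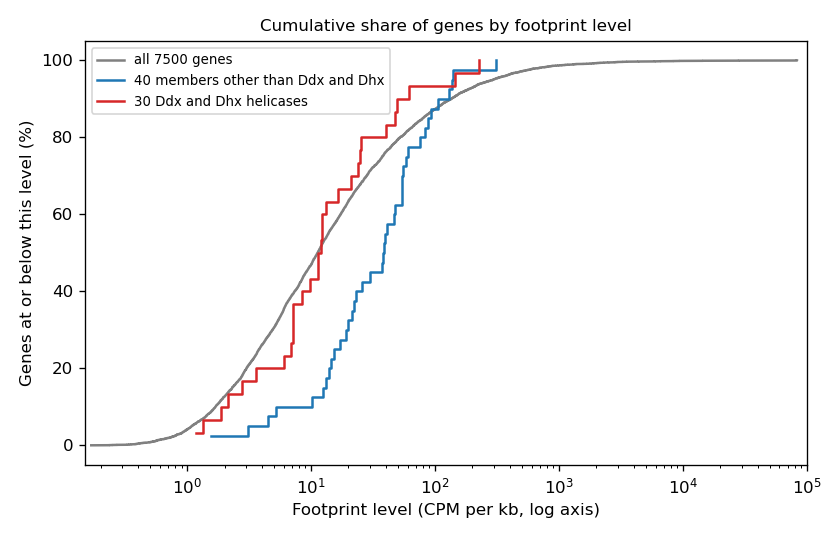
Cumulative share of genes (%) by footprint level in CPM per kb (log axis) for all 7500 genes (grey), the 40 genes other than Ddx and Dhx (blue) and the 30 helicases (red). The blue curve crosses 50% at a median of 38.5 and the red curve at 11.7, beside 11.3 for the whole table.

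Proteins of the hnRNP class, which coat nascent transcripts, included the highest level of all. Hnrnpa2b1 (ENSMUSG00000004980.9, chr6:51410433-51419893), which encodes the hnRNP A2 and B1 proteins, had 313 CPM per kb and 302 CPM, and 95.3% of the table's genes had a lower level per kb. Hnrnpf stood at 139, Hnrnpc at 138 and Hnrnpab at 128 CPM per kb, and they were less than 1.1-fold apart from neighbour to neighbour. The 11 hnRNP genes had a median of 54.2 CPM per kb and held 26.5% of all CPM of the 70 genes. Hnrnpul2, Hnrnpm, Hnrnph2 and Hnrnph1 followed at 60.6, 54.2, 39.8 and 37.3 CPM per kb, and Hnrnpr and Hnrnpul1 at 15.2 and 14.4. Hnrnph3 was the lowest, at 3.09 CPM per kb, and it also had the lowest CPM of all 70 genes, 3.04.

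Among the hnRNP H genes, which are close relatives, Hnrnph1 and Hnrnph2 had similar levels and Hnrnph3 a lower one. Hnrnph2 (chrX:131135718-131141599) and Hnrnph1 (chr11:50190492-50200030) shared 85.9% of aligned coding bases and differed 1.07-fold in level. Hnrnph3 (chr10:62477412-62486965) shared 73.2% with Hnrnph1 and was 12.1-fold below it. Few footprint-sized stretches are identical between them, since at most 1.44% of the 30-base windows of these 3 genes occurred exactly in another gene. Windows that nearly match were not counted.

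SR proteins, which bind splicing enhancers, were represented by 4 genes. Srsf5 had 57.9 CPM per kb, Srsf6 38.6, Srsf11 17.0 and Srsf4 14.0, all above the table median of 11.3. That median is higher when genes under a log2 CPM of 3 are left out, and these 4 genes were not compared with it. Highest and lowest were 4.14-fold apart. The name of the class comes from runs of arginine and serine, and neighbouring arginine and serine codons were counted in either order as a check. There were between 9.46 and 21.8 such neighbours per 100 codons in the 4 SR genes, against a median of 0.752 and a 95th percentile of 1.89 over the table.

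Outside the Srsf family, arginine-serine neighbours were also frequent in Prpf38b (9.96 per 100 codons) and Prpf4b (6.16), a spliceosomal protein and a kinase. In all, 13 of the 70 genes (18.6%) lay above the table's 95th percentile, among them Snrpe (3.26), Ddx50 (3.13), Hnrnpa2b1 (2.64), Ddx3x (2.57) and Ddx23 (2.44). Snrpe has only 92 codons, so few neighbours set its value. The 13 genes had a median level of 17.0 CPM per kb and the other members 22.9.

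**Figure D3:**
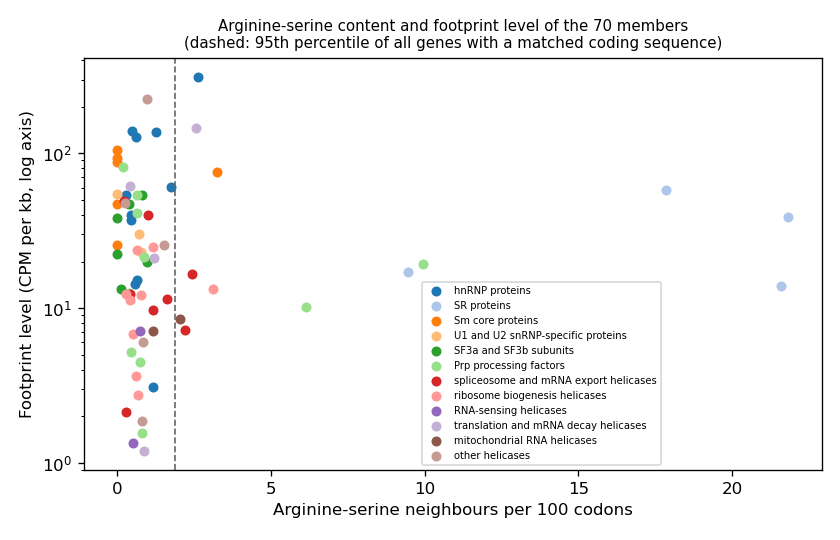
Footprint level in CPM per kb (log axis) against arginine-serine neighbours per 100 codons for the 70 genes, coloured by role, with the table's 95th percentile at 1.89 as a dashed line. The SR proteins and the Prp factors Prpf38b and Prpf4b lie far to the right of the line, at levels between 10.2 and 57.9 CPM per kb.

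Sm proteins form the ring around the U1, U2, U4 and U5 snRNAs, with each subunit present in a single copy. Of the 7 ring genes listed, 6 had a line, and all 6 were above the table median. Snrpg stood at 105 CPM per kb, Snrpd2 at 93.1, Snrpd3 at 87.7, Snrpe at 75.7, Snrpd1 at 47.3 and Snrpf at 25.5. The highest was 4.13-fold above the lowest, and 2.23-fold without Snrpf and Snrpd2, whose windows occur in part in another gene. As a group they had the highest median level per kb of any role, 81.7, although their CPM was low, between 5.13 for Snrpf and 28.2 for Snrpd3, with short counted sequences (median 258 bases). Among the proteins particular to the U1 and U2 particles, Snrpc stood at 54.9, Snrpa at 29.9 and Snrpa1 at 22.9 CPM per kb.

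SF3a and SF3b are the U2-associated complexes at the branch point. Sf3b2 had 54.1 CPM per kb, Sf3b1 46.8, Sf3b4 22.3 and Sf3b3 20.0, a range of 2.71-fold. Sf3b1, the large subunit that holds the branch helix, had 180 CPM over 3855 counted bases. Sf3a3 stood at 38.3 and Sf3a1 at 13.3 CPM per kb, 2.89-fold apart. All 6 genes were above the table median of 11.3 CPM per kb, Sf3a1 by little. That median is higher when genes under a log2 CPM of 3 are left out, and the comparison was not repeated for these 6 genes. The list does not hold every subunit of SF3b, and Sf3a2 and Sf3b5 were not analysed here.

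**Figure D4:**
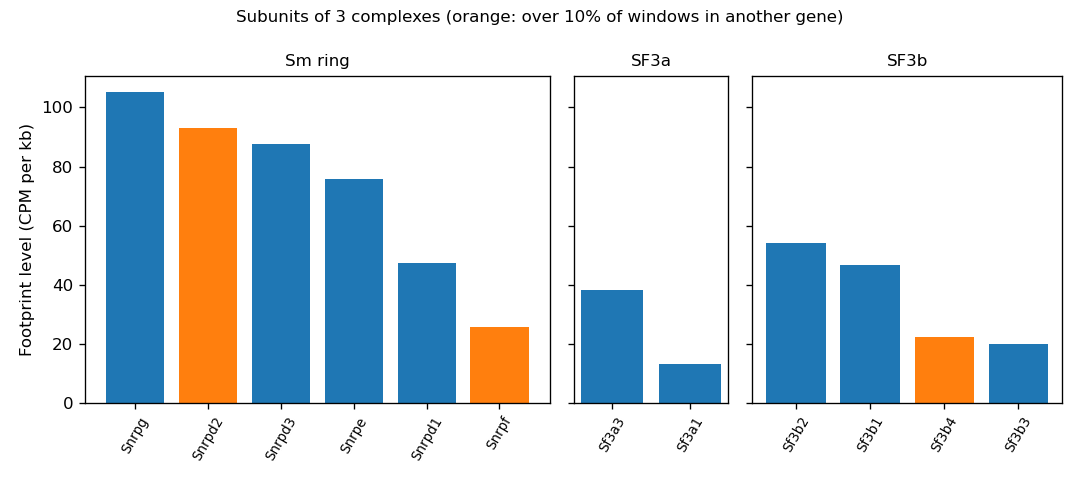
Footprint level in CPM per kb (bars from 0, linear axis) of the Sm ring, SF3a and SF3b subunits with a line in the table, 1 value per gene and no error bar because libraries were pooled. Orange bars are genes with over 10% of their 30-base windows in another gene; the ring runs from 105 for Snrpg to 25.5 for Snrpf.

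Prp factors spanned a wider range than the snRNP proteins. Prpf19, a ubiquitin ligase and the namesake of a complex that joins the spliceosome around activation, had 82.2 CPM per kb, and Prpf40b, which is related to a U1-associated yeast factor, had 1.55, a ratio of 53.0. Prpf8 (chr11:75300279-75322951), the large U5 protein at the catalytic centre, had 54.1 CPM per kb and, with 6948 counted bases in 42 coding exons, the second-highest CPM of all 70 genes, 376. Prpf6, a protein of the tri-snRNP, stood at 41.0, Prpf18 at 21.5, Prpf38b at 19.1, Prpf31 at 12.5 and Prpf4b at 10.2 CPM per kb. Prpf39 had 5.17 and Prpf3 4.48 CPM per kb. Of the 10 Prp genes, 4 were under the table median: Prpf4b, Prpf39, Prpf3 and Prpf40b.

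Helicases of the spliceosome and of mRNA export had a median of 11.9 CPM per kb. Ddx39b, known as UAP56 and needed for early spliceosome assembly and export, was the highest at 48.9, and its close relative Ddx39 stood at 9.72, 5.03-fold lower, with 81.6% of aligned coding bases identical. Dhx15, which takes part in releasing the lariat spliceosome, had 39.9 CPM per kb. Ddx23 stood at 16.5, Ddx19a at 12.3, Dhx8 at 11.4 and Dhx38 at 7.18. Dhx35 was the lowest at 2.14 CPM per kb.

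Helicases of ribosome biogenesis lay in a narrower range, from 24.8 CPM per kb for Ddx21 to 2.77 for Ddx55, and none of the 9 was above the upper quartile of the table. Ddx47 stood at 23.7, Ddx50 at 13.2, Ddx18 at 12.3, Ddx27 at 12.1, Dhx33 at 11.3, Ddx52 at 6.84 and Ddx51 at 3.62 CPM per kb. Ddx21 and Ddx50, nucleolar relatives with 72.5% identical aligned coding bases, differed 1.87-fold.

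Translation and decay helicases held both an upper and the lowest extreme. Ddx3x (chrX:12858096-12871178), which acts in translation initiation, had 146 CPM per kb and 281 CPM. Ddx6, a helicase of mRNA decapping and repression, had 61.5 CPM per kb. Dhx36, which unwinds G-quadruplexes, had 20.95 CPM per kb. Dhx34 (chr7:16782496-16807386), linked to nonsense-mediated decay, had 1.19 CPM per kb, the lowest of all.

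Among helicases with other roles, Ddx5 (chr11:106641669-106650499), a transcription and splicing cofactor, had 226 CPM per kb and the highest CPM of all 70 genes, 404. Its relative Ddx17 (chr15:79358137-79377171) stood at 25.5 CPM per kb, 8.87-fold lower, with 71.9% of aligned coding bases identical. The motif windows shown above encode the same DEAD residues in both. Ddx1 had 47.8, the SMN-complex helicase Ddx20 6.01, and Ddx11, which acts on DNA in chromatid cohesion, 1.87 CPM per kb.

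The antiviral RNA-sensing helicase genes Dhx58 and Ddx60, and the mitochondrial helicase genes Ddx28 and Dhx30, were below the table median. Dhx58 (LGP2) had 7.10 CPM per kb and Ddx60 (chr8:64406884-64516498) 1.34. The related sensor gene Ifih1 (MDA5), which has another prefix, stood at 13.1 CPM per kb, above the table median. Ddx28 and Dhx30, which act on mitochondrial RNA and ribosomes, had 8.51 and 7.13 CPM per kb.

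The 10 highest levels were those of Hnrnpa2b1, Ddx5, Ddx3x, Hnrnpf, Hnrnpc, Hnrnpab, Snrpg, Snrpd2, Snrpd3 and Prpf19. The 10 lowest were those of Prpf39, Prpf3, Ddx51, Hnrnph3, Ddx55, Dhx35, Ddx11, Prpf40b, Ddx60 and Dhx34. In the whole order, 45 of the 69 neighbouring pairs were less than 1.1-fold apart, and with no spread between libraries their order cannot be told. The widest step was 1.55-fold, between Ddx5 and Ddx3x. Without division by length, 6 of the 10 highest stayed among the 10 highest and Prpf8 moved up to second.

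Level per kb was lower at greater coding length among these genes, as over the table, with a Spearman rho of -0.46 over the 70 genes and -0.45 over all 7500. These are descriptions across genes that share libraries, and length is also the divisor of the level. CPM not divided by length had a rho of 0.13 with length among the 70 genes. With the GC content of the coding sequence the rho of the level per kb was -0.21 over the 70 genes and -0.07 over 7093.

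**Figure D5:**
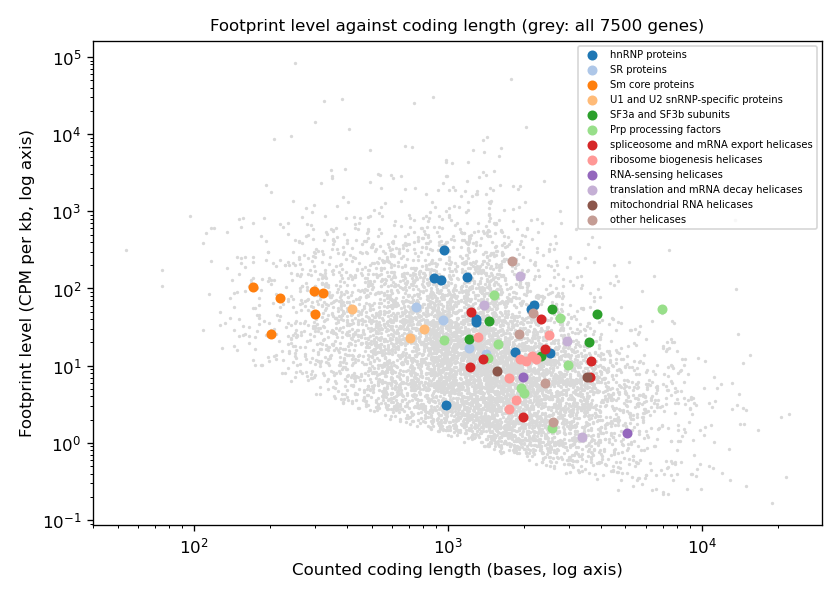
Footprint level in CPM per kb against counted coding length in bases (both log axes), with all 7500 genes in grey and the 70 genes coloured by role. The Sm core proteins form the short, upper end and Ddx60, at 5076 bases and 1.34 CPM per kb, lies at the long, lower end.

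Footprints are about as short as the windows tested here, so a gene whose sequence recurs elsewhere may lose or gain reads where only unique alignments are kept. In 61 of the 70 genes no 30-base coding window occurred, base for base, in another annotated protein-coding transcript. Only exact matches were counted, while the authors' alignment allowed mismatches, so windows that nearly match another gene are left out of these counts. More than 10% of windows did so in 5 genes: 88.7% in Snrpd2, 83.8% in Sf3b4, 56.6% in Ddx19a, 40.7% in Snrpa and 18.1% in Snrpf. Levels of these 5 genes are uncertain for that reason, and what it did to them was not tested. The genes that hold most of the shared windows are Gm10120, Gm7935, Gm5145 and Gm6616, all pseudogenes in RefSeq, and for Ddx19a the protein-coding Ddx19b. The authors aligned to RefSeq mRNAs, and whether these held the pseudogenes was not checked. If they did not, windows shared only with a pseudogene would still have aligned uniquely. A window common to a gene and its copy is shown for Snrpd2 (chr7:19737825-19737854, plus strand, shared with Gm10120) and for Ddx19a (chr8:113502970-113502999, minus strand, shared with Ddx19b), because such a read has more than 1 possible source.
Snrpd2: gcactgcaacatggtgctggaaaatgtgaa
Ddx19a: tggacgaggctgatgtgatgatagcgactc

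Other genes of RNA splicing and RNA unwinding were read from a list of 77 with different prefixes. A line was present for 54 of them, with a median of 25.2 CPM per kb, beside 21.9 for the 70 genes. Above the table median were 48 of the 54, beside 52 of the 70. Leaving out genes under a log2 CPM of 3 was not tried for this list. The highest were Eif4a1, the cap-complex helicase of translation initiation, at 516, the poly(C)-binding protein gene Pcbp1 at 237, the splicing repressor gene Ptbp1 at 109, the U5 protein gene Txnl4a at 99.3 and Lsm6 at 96.3. The lowest were Snrnp40 at 9.10, Snrnp48 at 8.77, the mitochondrial helicase gene Supv3l1 at 6.74, Sart3 at 6.00 and Dqx1 at 2.82.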

How the data were processed

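Ribosome footprints of liver were sequenced from 8 libraries. Per the study's methods, the authors trimmed adapters, removed rRNA reads, aligned unique reads to the longest RefSeq isoform of each gene (Bowtie and the mm9 build are also in the submitters' processing notes), left out codons at both ends and ran edgeR on expressed genes; tool versions were not named there. The deposited table holds 1 log2 CPM per gene, the authors' mean over all libraries, and a length. It also holds 4 columns of the authors' own diet comparison (fold changes, p-values and adjusted p-values), which were not used. The planned diet test needed counts per library and was not run, and total counts per library are unknown.

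The log2 CPM as deposited was raised to CPM and divided by the deposited length in kb, with no filter. That length was exactly 60 bases shorter than a GENCODE vM1 coding sequence (NCBIM37, the same assembly as mm9) for 7093 of 7260 genes, so it was taken as the counted region. Coding sequences were read from these isoforms; RefSeq (GRCm38.p6) gave gene types only. The search for shared 30-base windows was tested on simulated sequences. Members and lists were chosen with earlier results of these data known; gene pairs, motif types, arginine-serine content and the limits of 100 and 10 CPM per kb were chosen after levels were seen. Named genes were the 10 highest and 10 lowest, the extremes of each of 12 role groups, subunits of the Sm ring, SF3a and SF3b, Ddx58, Dhx58, Ddx60, Ddx3x, Ddx3y, and the 5 highest and 5 lowest of the pathway list; the further genes were named after their values were seen. Python 3.11.15, pandas 2.3.3, scipy 1.17.1, Biopython 1.88 and matplotlib 3.10.9 were used.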

Additional observations from a re-analysis of the deposited data

How the results depend on the processing

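The levels were recomputed under 32 alternatives to 8 results, and 27 stayed within 1.5-fold of the value given. Some of the 27 could not move. The 10 highest genes and the SF3a and SF3b genes all lie above a log2 CPM of 3, so that limit leaves their values as they were. The percentage of genes above the table median also counts among the 27, though that limit took it from 74.3% to 54.1%. With CPM not divided by length, 6 of the 10 highest genes stayed in the 10 highest. With only genes of log2 CPM of at least 3, the ratio of the medians to the table was 1.088, and the Sm ring range was 2.228-fold because Snrpf was left out. That range was also 2.228-fold without genes that share over 10% of their windows, which leaves out Snrpf and Snrpd2. Without the 100 most abundant genes, the 70 genes held 1.151% of summed CPM. The length less 18 codons takes codons off a length that already leaves codons out, and the whole coding sequence as length was added after seeing the data. So were the shared-window alternative and undivided CPM for the comparison with the table, and the log2 CPM limit for the complexes. DESeq2, its size factors, no count filter and leaving out each mouse were not run, since no counts per library were used here. No paired analysis was possible because the diets share no mouse number and the table has no value per library. The number of footprints behind a level is unknown, and a low CPM rests on fewer of them than a high CPM.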
